A study of Mus musculus with 58 samples.

Results

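The 10 livers of a single treatment group fell into 2 sets by their acute-phase transcripts, and the results below describe what else separated those sets. The livers were the 10 second-batch samples of old male C57BL6/J mice (24 months) that had received an AAV8 virus carrying Myc under the TBG promoter and were dosed with ruxolitinib. The TBG promoter is active in hepatocytes, so the vector acts in that cell type, while the RNA came from whole liver. Ruxolitinib, an inhibitor of the JAK1 and JAK2 kinases, was given by gavage at 45 mg/kg 2 times a day for 30 days with a break at weekends. Libraries 1149, 1150, 1154 and 1158 formed the acute-phase-high set of 4 livers, and libraries 1151, 1152, 1153, 1155, 1156 and 1157 the acute-phase-low set of 6 livers, of 58 libraries in the series. Both sets share vector, drug, age, strain, sex and sequencing batch. They were chosen by the measured levels of 11 transcripts, Saa1 to Saa4, Orm1 to Orm3, Apcs, Hp, Hpx and Lcn2, so every difference between the 2 sets is given as a description with no test.

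The other 48 libraries took no part in that choice and gave the only tests. They comprised, in the first batch (old mice of 25 months), 4 old Myc ruxolitinib, 6 old Myc vehicle, 4 old mApple ruxolitinib and 4 old mApple vehicle livers. In the second batch they comprised 5 old Myc vehicle, 5 old mApple ruxolitinib, 4 old mApple vehicle, 10 young Myc ruxolitinib and 6 young mApple vehicle livers, with young mice at 4 months. mApple, a red fluorescent protein, is the control cargo of the same vector. Nothing in the labels says more of the replicates than that they are separate samples, so the p-values measure the spread between these samples.

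The acute-phase response is the change in hepatocyte secretion that follows inflammation or tissue injury. Interleukin-6 acting through JAK kinases and the transcription factor STAT3, together with interleukin-1 acting through NF-kB and C/EBP factors, switches hepatocytes to making serum amyloid A, haptoglobin, hemopexin, fibrinogen and orosomucoid. Type I interferons also signal through JAK kinases, but to a different set of antiviral genes.

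Exon counts per library ran from 10.7 to 41.0 M over the 58 libraries, with a median of 14.6 M. The 4 high livers had 41.0, 14.3, 19.9 and 17.4 M (1149, 1150, 1154 and 1158), and the 6 low livers had 11.9 to 35.5 M. Reads were counted for 1 transcript per gene symbol without a strand setting, so transcripts of close paralogs (Saa1 and Saa2, Mt1 and Mt2, the Orm genes, the Scd genes) and of overlapping genes can share reads. In whole liver, fewer cells of a type and less RNA per cell cannot be told apart.

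The promoters of the 4 most separated of the marker transcripts are shown because these transcripts both chose the sets and differed most between them. Each is the 250 bases before the RefSeq transcription start in the GRCm38.p6 assembly, and capitals mark matches to the C/EBP core motif TTGCNNAA on either strand. Saa1 lies at chr7:46742981-46743230 on the minus strand, Saa2 at chr7:46751583-46751832 on the plus strand, Orm2 at chr4:63362199-63362448 on the plus strand and Lcn2 at chr2:32387740-32387989 on the minus strand.
Saa1: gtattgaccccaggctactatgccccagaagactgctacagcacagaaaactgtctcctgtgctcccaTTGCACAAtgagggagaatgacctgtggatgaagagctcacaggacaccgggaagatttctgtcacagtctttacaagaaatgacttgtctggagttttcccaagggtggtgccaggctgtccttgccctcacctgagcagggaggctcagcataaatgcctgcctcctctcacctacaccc
Saa2: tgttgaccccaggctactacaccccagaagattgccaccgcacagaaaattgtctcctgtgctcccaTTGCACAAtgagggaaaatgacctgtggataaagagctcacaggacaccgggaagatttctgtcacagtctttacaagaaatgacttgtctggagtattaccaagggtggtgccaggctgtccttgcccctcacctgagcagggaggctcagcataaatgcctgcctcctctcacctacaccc
Orm2: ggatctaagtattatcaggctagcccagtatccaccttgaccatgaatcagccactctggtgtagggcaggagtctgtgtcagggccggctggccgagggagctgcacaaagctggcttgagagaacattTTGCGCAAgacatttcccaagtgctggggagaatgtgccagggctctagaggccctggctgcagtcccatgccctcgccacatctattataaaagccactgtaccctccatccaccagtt
Lcn2: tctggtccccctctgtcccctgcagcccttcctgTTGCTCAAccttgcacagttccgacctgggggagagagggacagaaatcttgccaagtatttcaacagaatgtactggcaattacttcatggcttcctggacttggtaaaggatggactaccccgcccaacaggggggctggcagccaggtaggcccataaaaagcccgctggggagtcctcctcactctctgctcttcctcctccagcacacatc
Each of these 4 windows holds 1 match to TTGCNNAA, and none holds the STAT motif TTCNNNGAA or the NF-kB motif (GGG and TTTCC with 2 bases between them), searched on both strands without counting overlaps between motifs. Aligned end to end, the Saa1 and Saa2 windows are identical at 238 of 251 alignment columns (94.8%). Windows were found for 9 of the 11 transcripts that chose the sets, and 8 of those 9 hold TTGCNNAA, which 9.56% of all 32851 mouse windows also hold. The motifs were chosen with the sequences in view, and the 9 windows include the near-copies of Saa1 and Saa2. That count is therefore description only. The share with TTGCNNAA was 21.4% of 28 windows for the transcripts that were higher in the high livers (defined below) and 7.69% of 52 windows for those that were lower. TTCNNNGAA occurred in 17.9% of the higher and 5.77% of the lower transcripts' windows, against 7.02% of all windows, and the NF-kB motif in 3.57% and 1.92%, against 1.41%. A match describes letters in these windows and is not evidence of a bound site.

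The acute-phase level of a library, the mean log2(CPM + 1) of the 11 transcripts, was 8.91, 8.83, 9.03 and 8.35 in the high livers (1149, 1150, 1154 and 1158) and ran from 5.97 to 6.31 in the low livers. CPM are counts per M mapped exon counts with TMM scaling over all 58 libraries. The means were 8.78 ± 0.296 in the high set (SD, n = 4) and 6.10 ± 0.138 in the low set (SD, n = 6), a difference of 2.68. The lowest high liver (1158) stood at 8.35 and the highest low liver (1157) at 6.31, with no liver between them.

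**Figure D1:**
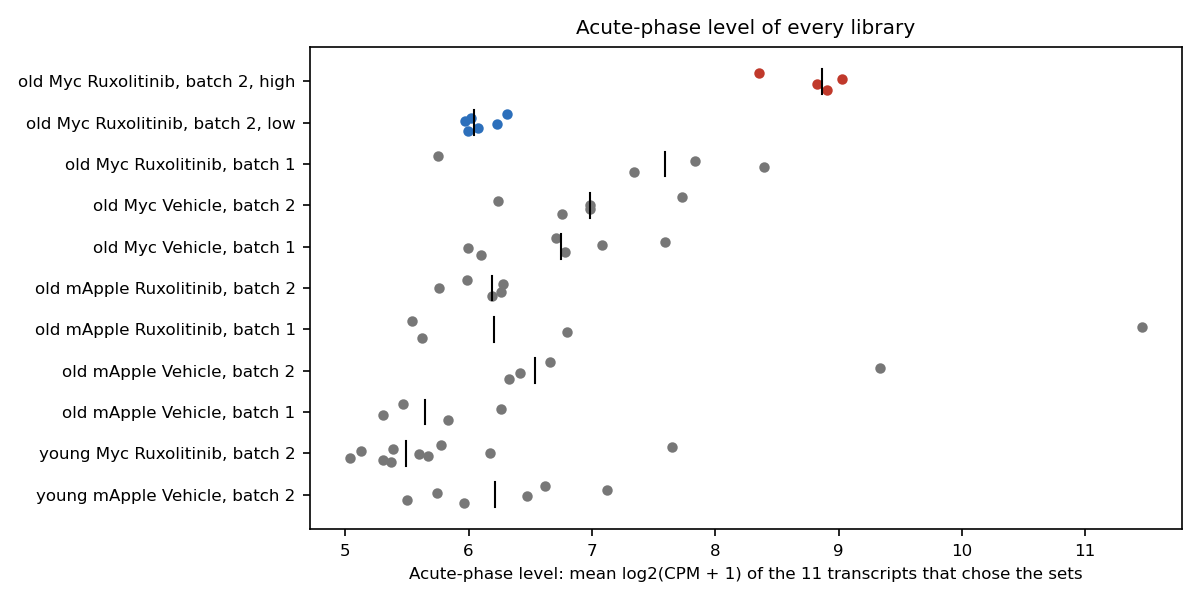
Acute-phase level (x axis, mean log2(CPM + 1) of the 11 transcripts that chose the sets) of all 58 libraries, 1 point each, by group and sequencing batch, with the median of each row as a vertical bar. The 4 high livers lie between 8.35 and 9.03 and the 6 low livers between 5.97 and 6.31, while the other groups spread from 5.04 to 11.5.

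Single libraries at such levels also occurred in other groups. An old mApple ruxolitinib liver of the first batch (library 864) reached 11.5, with 9331 CPM of Saa1, and an old mApple vehicle liver of the second batch (library 1137) reached 9.34, with 2097 CPM of Saa1. In first-batch old Myc ruxolitinib livers, the closest match to the 10 by group, the level had a lowest value of 5.76, a median of 7.59 and a highest value of 8.40 (n = 4). These livers spanned the gap that separates the 2 sets of the second batch.

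Serum amyloid A transcripts, whose products bind high-density lipoprotein, set the widest gap. Saa1 stood at 1447, 936, 2110 and 855 CPM in the high livers, against a lowest value of 17.8, a median of 23.0 and a highest of 37.1 CPM in the low livers. Saa2 was at 717, 580, 1402 and 278 CPM in the high livers, against 5.11, 8.96 and 17.8 CPM (lowest, median, highest) in the low livers. The 2 sets were far from overlapping for either gene, and liver 1154 was the highest for both. Saa3 stood at 6.78, 16.4, 4.55 and 4.02 CPM in the high livers and ran from 2.07 to 4.28 CPM in the low livers, and Saa4 likewise overlapped between the sets, with 222 to 422 CPM in the high and 187 to 309 CPM in the low livers.

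Lcn2, which encodes the siderophore-binding protein lipocalin 2, was at 381, 266, 1179 and 197 CPM in the high livers, against a lowest of 6.86, a median of 8.74 and a highest of 18.6 CPM in the low livers. Orm2, an orosomucoid, was at 242, 220, 124 and 123 CPM in the high livers, against 12.2, 16.8 and 21.6 CPM (lowest, median, highest) in the low livers. Liver 1154 led for Saa1, Saa2 and Lcn2, and liver 1149 for Orm2 and Apcs. Apcs, which encodes serum amyloid P, was at 338, 235, 181 and 172 CPM in the high livers and 44.0 to 63.9 CPM in the low livers. The abundant plasma carriers Hp and Hpx differed less, Hp with 6695 to 10374 CPM in the high and 2436 to 3551 CPM in the low livers, and Hpx with 5800 to 8084 CPM in the high and 3446 to 4390 CPM in the low livers. Of the 11 transcripts, 9 did not overlap between the sets, which is what the choice of livers fixed.

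Outside those 11, a transcript was called apart when the 4 high and 6 low livers did not overlap and the mean log2(CPM + 1) differed by at least 1. Of 12524 transcripts with a mean of at least 1 CPM, 35 (0.279%) were apart and higher in the high livers and 55 (0.439%) were apart and lower. Without the size condition, 325 (2.6%) were higher and 281 (2.24%) lower without overlap, and the median difference of all 12524 was 0.00. Liver 1150 decided the second count: without it, 242 transcripts were apart and lower and 57 apart and higher, and without liver 1155 the counts were 84 and 42.

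The transcripts apart in the 10 livers were then read in the 48 other libraries, where each gene was fitted against the acute-phase level with 1 term for each of the 9 groups by batch. A slope is the log2 change per unit of that level, tested with edgeR's quasi-likelihood test and adjusted by Benjamini-Hochberg over 14582 genes. In all, 495 genes (3.39%) rose and 291 (2%) fell with the level at an adjusted p under 0.05. Of the 35 transcripts higher in the high livers, 29 rose in the 48 libraries, none fell, and all 35 slopes were positive. Of the 55 lower transcripts, 13 fell, none rose, and 51 slopes were negative.

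Library 864 carried much of that fit. Without it 21 of the 35 rose and 3 of the 55 fell, while 71 genes (0.498%) rose and 23 (0.161%) fell in all. Leaving out both 864 and 1137, a choice made after their values were seen, left 16 of the 35 rising and none of the 55 falling, with 64 genes rising, 6 falling and 1919 at an unadjusted p under 0.05, and with 35 positive slopes among the 35 and 38 negative among the 55. Within the second batch alone 20 of 34 rose and 1 of 55 fell, against 0.376% and 0.0426% of all genes tested there. Within the first batch alone 25 of 35 rose and 8 of 55 fell, against 1.55% and 0.569%. Of the genes named below whose call was lost without 864, Il1r1, Nnmt, Elovl3, Me1, Etnppl, Acaa1b and S100a8 did not pass in the second batch alone either, with adjusted p from 0.285 for Nnmt to 0.909 for S100a8.

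**Figure D2:**
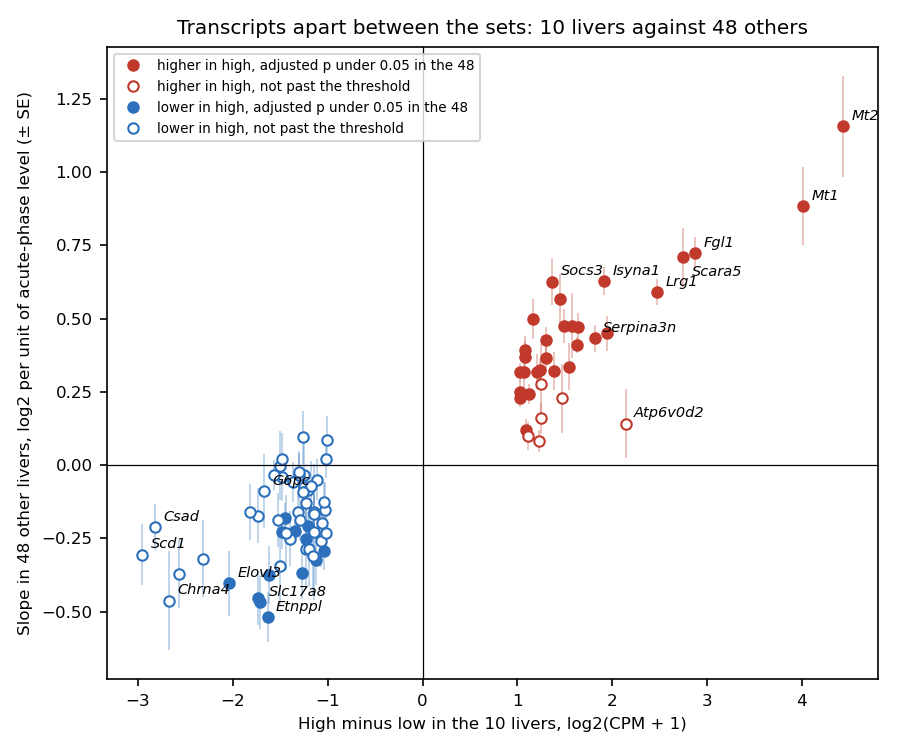
Difference between the high and low livers (x axis, log2(CPM + 1)) against the slope on the acute-phase level in the 48 other libraries (y axis, log2 per unit of level, bars ± SE) for the 35 transcripts apart and higher (red) and the 55 apart and lower (blue). Filled points passed an adjusted p of 0.05: 29 of the 35 higher and 13 of the 55 lower transcripts.

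Further secreted acute-phase proteins accompanied the 11. Of 27 other secreted acute-phase transcripts measured at 1 CPM or more, 15 were higher in the high livers without overlap and none lower. Over all transcripts the shares were 2.6% and 2.24%. The list had a median difference of 0.74. In the 48 libraries 23 of 31 tested rose, against 3.39% of all genes, and none fell. Without library 864, 12 of 30 rose, against 0.498% of all genes. Fgl1, which encodes the hepatokine fibrinogen-like 1, was at 973, 814, 1174 and 918 CPM in the high livers, against a lowest of 79.4, a median of 133 and a highest of 212 CPM in the low livers. With the level it rose in the 48 libraries by 0.72 ± 0.06 per unit of level (SE, edgeR quasi-likelihood adjusted p = 2.9e-13). Lrg1, whose product is a leucine-rich plasma glycoprotein, was at 1177, 878, 1393 and 903 CPM in the high livers and 142 to 260 CPM in the low livers, and its slope was 0.59 ± 0.04 (adjusted p = 1.09e-13). Both genes kept their call without library 864, with adjusted p of 2.79e-10 for Fgl1 and 2.9e-07 for Lrg1.

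Among protease inhibitors and matrix-binding proteins, Itih3, a heavy chain of the inter-alpha-trypsin inhibitors, was at 3040, 2004, 3223 and 3120 CPM in the high livers and 780 to 976 CPM in the low livers. Serpina3n, a serine protease inhibitor, was at 1423, 1039, 3046 and 1122 CPM in the high livers, against 376 to 511 CPM in the low livers. Prg4, which encodes the lubricating proteoglycan lubricin, was at 280, 199, 349 and 182 CPM in the high livers and 66.5 to 89.1 CPM in the low livers. All 3 rose in the 48 libraries, Itih3 by 0.41 ± 0.03 (adjusted p = 1.98e-15), Serpina3n by 0.43 ± 0.05 (1.96e-09) and Prg4 by 0.47 ± 0.05 per unit of level (7.05e-10, edgeR quasi-likelihood). Without 864 and 1137 the call of Serpina3n was lost (slope 0.19, adjusted p = 0.196). The 3 fibrinogen chains, named here after their values were seen, were all apart: Fga was at 9982 to 10880 CPM in the high livers and 3996 to 5816 CPM in the low livers, with differences of 1.12 for Fga, 1.02 for Fgb and 1.03 for Fgg on the log2(CPM + 1) scale. Their slopes were 0.24 ± 0.03, 0.23 ± 0.03 and 0.25 ± 0.04, and all 3 calls were lost without library 864, with adjusted p of 0.109, 0.0632 and 0.118. None passed without 864 and 1137 either, with a smallest adjusted p of 0.0797 for Fgb. All 3 passed in the second batch alone, with slopes of 0.20, 0.21 and 0.24 (adjusted p = 0.0139, 0.0172 and 0.0156).

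Of 35 complement and coagulation transcripts, 8 were higher without overlap and none lower, against 2.6% and 2.24% of all transcripts. Their median difference was 0.28 (0.00 over all transcripts). Hrg, histidine-rich glycoprotein, was at 2630, 1182, 3706 and 2513 CPM in the high and 878 to 1131 CPM in the low livers, while its slope of 0.16 ± 0.05 missed the threshold (adjusted p = 0.0716; without library 860, 861 or 869 it passed, the smallest adjusted p being 0.0158). Of 36 members tested in the 48 libraries, 12 rose and 1 fell (against 3.39% and 2% of all genes), and 3 of 35 rose without 864 (against 0.498%). A mixed list of 20 negative acute-phase and other hepatocyte secreted proteins had a median difference of 0.22. Of these, 2 were higher in the high livers without overlap and none lower, against 2.6% and 2.24% of all transcripts. In the 48 libraries 3 of 20 fell, against 2% of all genes tested, and none fell without 864.

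The largest differences outside the 11 were in the metallothioneins, small proteins that bind zinc and copper. Mt2 was at 209, 355, 299 and 97.2 CPM in the high livers, against a lowest of 3.96, a median of 5.26 and a highest of 35.6 CPM in the low livers. Mt1 was at 261, 443, 699 and 110 CPM in the high livers and 9.29 to 44.4 CPM in the low livers. Low livers 1151 and 1157 stood above the other 4 low livers for both genes, but below every high liver. In the 48 libraries the slopes were 1.16 ± 0.17 for Mt2 (adjusted p = 7.72e-06) and 0.88 ± 0.13 for Mt1 (adjusted p = 8.88e-06, edgeR quasi-likelihood). In the second batch alone they were 1.06 and 0.84 and did not pass (adjusted p of 0.111 for Mt2 and 0.128 for Mt1). Both calls were kept without library 864 (adjusted p = 0.0193 for Mt2 and 0.0292 for Mt1).

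Iron genes gave a mixed picture. Scara5, a receptor for ferritin, was at 32.8, 28.2, 46.3 and 21.1 CPM in the high livers and 1.83 to 8.10 CPM in the low livers. Its slope in the 48 libraries was 0.71 ± 0.10 (adjusted p = 3.79e-06, 0.00364 without library 864 and 0.122 in the second batch alone). Hamp, which encodes the iron hormone hepcidin and was named after its values were seen, overlapped between the sets at 261 to 1220 CPM in the high and 336 to 741 CPM in the low livers. Its paralog Hamp2 was lower in the high livers, at 39.6, 26.1, 13.3 and 22.2 CPM against 40.3 to 102 CPM in the low livers, and its slope of -0.23 ± 0.13 did not pass (adjusted p = 0.32). Of the 21 iron, zinc and metallothionein transcripts, 5 were higher and 2 lower without overlap, against 2.6% and 2.24% of all transcripts.

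**Figure D3:**
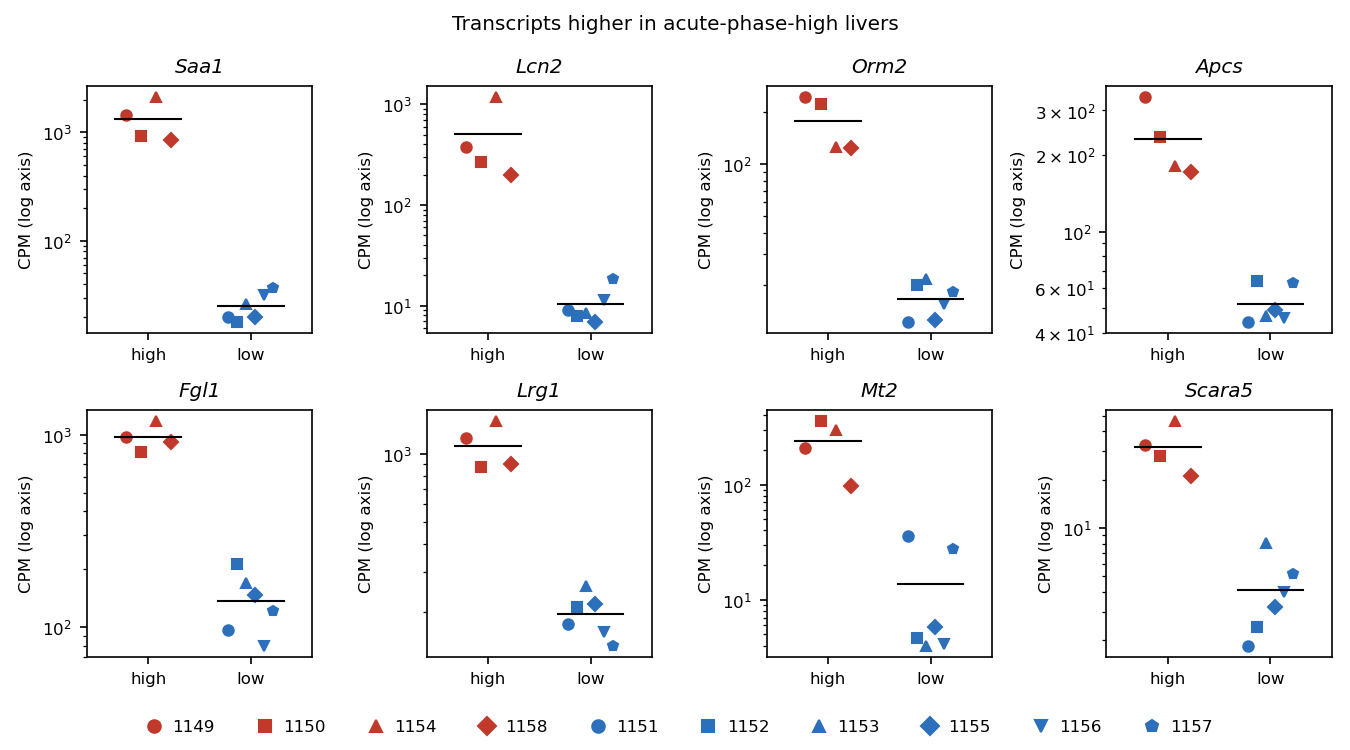
CPM (log axis, a scale of its own in each panel) of 8 transcripts in the 4 high (red) and 6 low (blue) livers, 1 symbol per library, with the mean of each set as a bar. Saa1, Lcn2, Orm2 and Apcs took part in choosing the sets and Fgl1, Lrg1, Mt2 and Scara5 did not; all 4 high livers lie above all 6 low livers in each panel.

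Receptors and feedback regulators of the cytokines that drive this response were next examined. Socs3, the STAT3-induced inhibitor of JAK signalling, was at 18.7, 11.8, 12.002 and 10.4 CPM in the high livers and 3.29 to 6.53 CPM in the low livers. It rose in the 48 libraries (slope 0.63 ± 0.08, adjusted p = 2.2e-07), with an adjusted p of 0.0491 without library 864. The call was lost in the second batch alone (slope 0.41, adjusted p = 0.331) and without 864 and 1137 (slope 0.32, adjusted p = 0.357). Il1r1, the interleukin-1 receptor, was at 75.6, 72.2, 81.9 and 54.3 CPM in the high and 21.6 to 43.5 CPM in the low livers, and rose by 0.32 ± 0.06 per unit of level (adjusted p = 0.000339), a call lost without 864 (adjusted p = 0.0837). As lists, 2 of 26 cytokine receptor and STAT3 transcripts and 2 of 28 transcripts of the interleukin-1, TNF and NF-kB list were higher without overlap. Over all transcripts the share was 2.6%. The median differences of these lists were -0.02 and -0.20. Members rising in the 48 libraries numbered 9 of 28 in the first list and 13 of 34 in the second (3.39% of all genes), and none fell. Without library 864 the numbers were 3 of 28 and 1 of 33, against 0.498% of all genes. Il6 itself, looked up after the values were seen, was at most 0.0661 CPM in any of the 10 livers.

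Several higher transcripts encode enzymes and carriers that are not plasma proteins. Isyna1, the enzyme that makes inositol phosphate from glucose phosphate, was at 41.7, 19.8, 36.3 and 23.0 CPM in the high and 3.91 to 10.2 CPM in the low livers (slope 0.63 ± 0.05, adjusted p = 1.8e-13). Nnmt, nicotinamide N-methyltransferase, was at 109, 79.9, 273 and 78.3 CPM in the high and 27.0 to 55.7 CPM in the low livers, and its rise in the 48 libraries (slope 0.34 ± 0.08, adjusted p = 0.00725) was lost without library 864 (adjusted p = 0.248). Atp6v0d2, a subunit of the vacuolar proton pump, was not among the rising genes. It was at 84.8, 34.1, 47.2 and 53.7 CPM in the high and 3.96 to 30.8 CPM in the low livers, and its slope was 0.14 ± 0.12 (adjusted p = 0.555).

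Of 27 endoplasmic reticulum stress genes, 7 were higher in the high livers without overlap (against 2.6% of all transcripts), none was apart by the size condition and 20 overlapped, with a median difference of 0.37. Hyou1, a chaperone, was at 219, 271, 154 and 139 CPM in the high and 76.4 to 116 CPM in the low livers, and Xbp1, the transcription factor of the unfolded protein response, was at 176 to 224 CPM in the high and 104 to 142 CPM in the low livers. Neither passed in the 48 libraries: the slopes were -0.01 ± 0.06 for Hyou1 (adjusted p = 0.972) and 0.07 ± 0.03 for Xbp1 (adjusted p = 0.219). In all 1 of 27 members rose, against 3.39% of all genes tested.

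Scd1, the delta-9 desaturase that makes monounsaturated fatty acids, had the largest negative difference of all 12524 transcripts (-2.96). It was at 2213, 8862, 351 and 1348 CPM in the high livers, against a lowest of 11387, a median of 12266 and a highest of 17998 CPM in the low livers. The high livers spread widely, with 1150 near the low set and 1154 far below it. Its paralogs Scd3 and Scd4, which can share reads with it, were apart as well. Elovl3, a fatty acid elongase, was at 9.60, 36.6, 8.87 and 43.7 CPM in the high and 55.1 to 127 CPM in the low livers. Me1, malic enzyme, which supplies NADPH for fatty acid synthesis, was at 106, 145, 137 and 93.9 CPM in the high and 177 to 333 CPM in the low livers.

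In the 48 libraries the slope of Scd1 was -0.31 ± 0.10 and missed the threshold (adjusted p = 0.0741). Elovl3 fell by 0.40 ± 0.11 (adjusted p = 0.0218) and Me1 by 0.32 ± 0.09 per unit of level (adjusted p = 0.0181), and neither passed without library 864, at adjusted p of 0.304 for Elovl3 and 0.311 for Me1. The fall of Elovl3 was also lost without library 856, 869 or 1137, and that of Me1 without 869. Fasn, fatty acid synthase, overlapped between the sets at 263 to 961 CPM in the high and 818 to 1596 CPM in the low livers. Of 31 sterol and fatty acid synthesis transcripts, 3 were lower without overlap (2.24% of all transcripts) and none higher, with a median difference of -0.23. In the 48 libraries 4 of 31 fell, against 2% of all genes tested. Without 864 none fell by edgeR, with 20 at an unadjusted p under 0.05 and a negative slope.

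Csad, which makes the taurine precursor hypotaurine from cysteine sulfinate, was at 24.3, 168, 27.0 and 71.0 CPM in the high livers, against a lowest of 295, a median of 370 and a highest of 530 CPM in the low livers. Its slope was -0.21 ± 0.08 (adjusted p = 0.103), and it passed without library 864 (slope -0.45, adjusted p = 0.0323). Csad also passed by edgeR in the second batch alone (slope -0.58, adjusted p = 0.00151), but not without 864 and 1137 (slope -0.34, adjusted p = 0.193). Library 864, with the highest acute-phase level of all, had 164 CPM of Csad and 8594 CPM of Scd1, and library 1137 had 131 and 1001 CPM. Cyp8b1, which sets the share of cholic acid among bile acids, was at 91.4, 173, 19.8 and 179 CPM in the high and 207 to 252 CPM in the low livers, with a slope of -0.25 ± 0.09 (adjusted p = 0.109, and 0.0315 without library 868).

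Amino-lipid, peroxisomal and glucose enzymes were also among the lower transcripts. Etnppl, which breaks down phosphoethanolamine, was at 41.4, 39.8, 32.6 and 56.4 CPM in the high and 110 to 175 CPM in the low livers. It fell by 0.52 ± 0.09 per unit of level in the 48 libraries (adjusted p = 5.86e-05), with an adjusted p of 0.0705 without 864. Slc17a8, a vesicular glutamate transporter, was at 6.57, 12.4, 7.85 and 16.2 CPM in the high and 24.0 to 51.4 CPM in the low livers, and fell by 0.47 ± 0.09 (adjusted p = 0.000701), a call that was also made without 864 (adjusted p = 0.0275) but not in the second batch (0.0519) or the first batch (0.103) alone. Acaa1b, a peroxisomal thiolase, was at 323, 261, 81.3 and 402 CPM in the high and 561 to 900 CPM in the low livers and fell by 0.37 ± 0.10 (adjusted p = 0.016), which was lost without 864 (adjusted p = 0.331) or 869.

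G6pc, glucose-6-phosphatase, the last step of glucose release, was at 81.4, 104, 186 and 127 CPM in the high and 236 to 514 CPM in the low livers. In the other 48 livers its slope was -0.09 ± 0.13 (adjusted p = 0.761), and was positive without library 864 (0.05). Klf10, a zinc-finger transcription factor, was at 11.7, 7.93, 18.7 and 6.84 CPM in the high and 19.6 to 51.5 CPM in the low livers, with a slope of -0.00 ± 0.12 (adjusted p = 0.998, positive under several alternatives). PPAR-alpha and fatty acid oxidation transcripts had 2 of 29 lower without overlap and 8 of 30 falling in the 48 libraries, drug metabolism transcripts 3 of 46 lower, 1 higher and 10 of 46 falling, and periportal and urea cycle transcripts 2 of 23 lower, 1 higher and 8 of 23 falling. Over all transcripts 2.24% were lower and 2.6% higher without overlap, and 2% of all genes tested fell. Without library 864 none of the 3 lists had a falling member by edgeR, with 8, 5 and 9 members at an unadjusted p under 0.05 and a negative slope. The first batch alone had 5, 10 and 2 falling members (against 0.569% of all genes) and the second batch alone none. In the second batch the median slopes were 0.03, 0.08 and -0.04. There 13 drug metabolism members rose and 2 fell at an unadjusted p under 0.05 by edgeR.

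**Figure D4:**
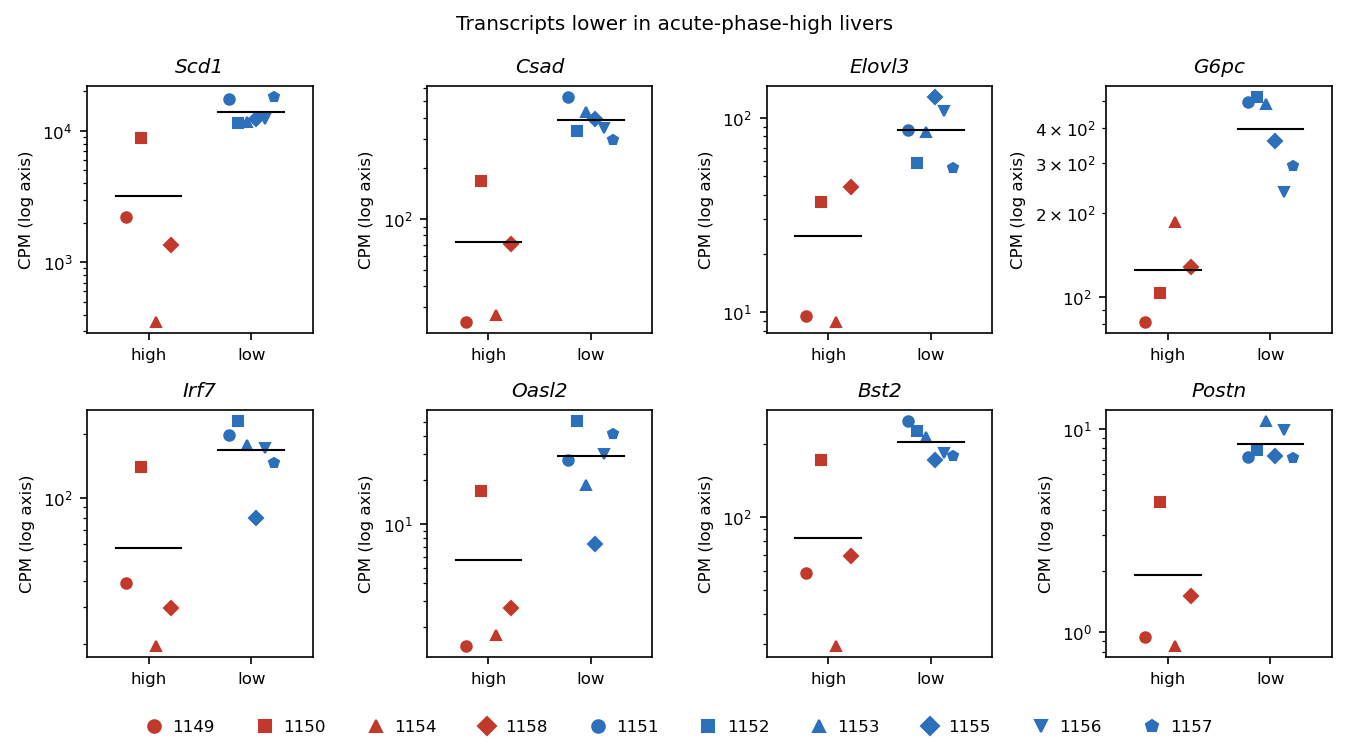
CPM (log axis, a scale of its own in each panel) of 8 transcripts in the 4 high (red) and 6 low (blue) livers, 1 symbol per library, with the mean of each set as a bar. Scd1, Csad, Elovl3, G6pc, Bst2 and Postn do not overlap between the sets, while Irf7 and Oasl2 overlap because high liver 1150 lies above low liver 1155.

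Type I interferon genes were lower in 3 of the 4 high livers. Irf7, the transcription factor that amplifies interferon production, was at 39.1, 141, 19.5 and 29.6 CPM in the high livers, against a lowest of 79.6, a median of 175 and a highest of 231 CPM in the low livers. Oasl2, an antiviral oligoadenylate synthetase-like protein, was at 1.48, 16.7, 1.76 and 2.70 CPM in the high and 7.32 to 50.2 CPM in the low livers. In both genes liver 1150 lay within the low set, and low liver 1155 was the lowest of its set. Bst2, the antiviral membrane protein tetherin, did not overlap, at 59.2, 172, 29.5 and 69.0 CPM in the high and 173 to 249 CPM in the low livers, with 1150 just below the low set.

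Of 45 type I interferon transcripts, 6 were lower without overlap (against 2.24% of all transcripts) and none higher. Their median difference was -0.98, against 0.00 over all 12524. Without liver 1150, 30 of the 45 were lower without overlap (against 8.96% of all 12506 transcripts in the same 9 livers) and 24 of them apart (53.3%, against 1.94%). Without liver 1155, 22 of the 45 were lower without overlap (against 3.1% of all transcripts) and 15 of them apart (33.3%, against 0.671%). By the mean of this list, 1150 was the highest high liver and 1155 the lowest low liver. Leaving out either one was therefore bound to favour separation, and the larger counts are description only. Interferon gamma transcripts had a median difference of -0.44 and none of 25 without overlap. When 1150 was left out, 10 of 25 were lower without overlap (against 8.96% of all transcripts), a count that is also description only. The mean log2(CPM + 1) of the type I list was 3.42, 4.41, 3.23 and 3.52 in the high livers and 3.96 to 5.11 in the low livers.

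Across the 48 libraries none of 46 type I interferon transcripts rose or fell by edgeR, DESeq2 or limma voom, with 3 at an unadjusted p under 0.05 by edgeR (1 up and 2 down). The slopes were 0.14 ± 0.08 for Irf7 (adjusted p = 0.387), 0.12 ± 0.12 for Oasl2 (adjusted p = 0.643) and -0.03 ± 0.05 for Bst2 (adjusted p = 0.795). The median slope over the list was 0.02. Of 26 interferon gamma transcripts 2 rose by edgeR, against 3.39% of all genes, and none fell, with a median slope of 0.08. Without library 864, 1 rose (against 0.498% of all genes), with 12 rising and none falling at an unadjusted p under 0.05. In the second batch alone none passed.

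**Figure D5:**
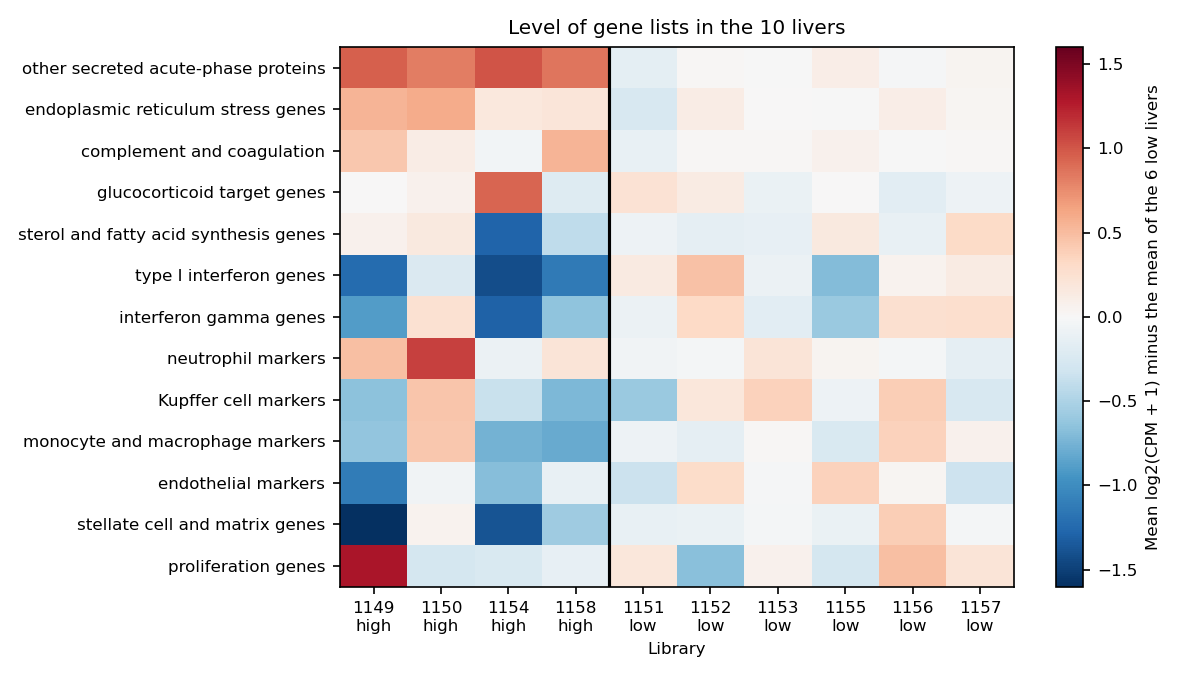
Mean log2(CPM + 1) of 13 gene lists (rows) in the 4 high and 6 low livers (columns), each minus the mean of the 6 low livers, red above and blue below. Other secreted acute-phase proteins are up in all 4 high livers, whereas in the interferon, neutrophil, Kupffer, monocyte, endothelial and matrix lists 1150 is the highest of the 4 high livers.

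Markers of other liver cell types, like the interferon genes, had their highest list level among the 4 high livers in 1150, while the order of the other 3 differed between lists. Stellate cell and matrix transcripts had a mean log2(CPM + 1) of 2.64, 4.43, 2.99 and 3.80 in the high livers and 4.25 to 4.76 in the low livers. Of 23, 3 were lower and 1 higher without overlap (against 2.24% and 2.6% of all transcripts), with a median difference of -0.99. By the mean of this list 1150 was the highest high liver, so leaving it out was bound to favour separation. As description only, 19 of 23 transcripts were lower without overlap once 1150 was left out, against 8.96% of all transcripts in the same 9 livers. Their summed CPM went the other way, 2568 to 2847 in the high and 1867 to 2348 in the low livers, a sum mostly made of Fn1 (2126 to 2596 CPM in the high and 1257 to 1694 CPM in the low livers), which hepatocytes also make. Col3a1, a fibrillar collagen, was at 6.96, 33.9, 6.48 and 22.4 CPM in the high and 30.5 to 74.3 CPM in the low livers. Postn, the matrix protein periostin, was at 0.949, 4.36, 0.853 and 1.51 CPM in the high and 7.20 to 10.9 CPM in the low livers, with no overlap. Ecm1, which holds latent TGF-beta in the matrix, was at 16.1, 64.8, 27.2 and 35.2 CPM in the high and 65.5 to 102 CPM in the low livers, and fell in the 48 libraries (slope -0.23 ± 0.04, adjusted p = 0.000165, 0.00413 without 864 and 0.0931 in the second batch alone). Neither Col3a1 (slope -0.04, edgeR adjusted p = 0.895) nor Postn (slope -0.16, adjusted p = 0.37) passed there. Of 25 members of the list 3 fell and 1 rose, against 2% and 3.39% of all genes, with a median slope of -0.06. Without 864, 1 fell and none rose.

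Endothelial markers had a median difference of -0.55 over 20 transcripts with none separate, and summed to 232 to 501 CPM in the high and 390 to 698 CPM in the low livers. Kupffer cell markers had a median difference of -0.46 (1 of 20 lower without overlap, against 2.24% of all transcripts), with mean log2(CPM + 1) of 3.69 to 4.85 in the high and 3.80 to 4.80 in the low livers. Monocyte and macrophage markers had a median of -0.50 (none of 19 separate), with sums of 179 to 507 CPM in the high and 304 to 449 CPM in the low livers. T and NK cell markers summed to 6.14 to 24.9 CPM in the high and 12.3 to 34.2 CPM in the low livers. In the 48 libraries 6 of 20 Kupffer markers and 8 of 22 monocyte and macrophage markers rose with the level (3.39% of all genes) and none fell. Without library 864 none passed by edgeR, with 8 and 4 rising at an unadjusted p under 0.05. Of 24 T and NK cell markers 1 rose, and none of 20 endothelial markers passed, with 2 rising at an unadjusted p under 0.05 by edgeR. For each of these 4 lists the high livers overlapped the low ones, and no listed marker was at 0 in all 10 livers. The part that cell makeup has in the interferon and matrix differences was not tested.

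Neutrophil markers were largely below 1 CPM in the 10 livers. Of 25 listed, 8 reached 1 CPM in the 10 livers and 1 (Stfa3) was at 0 in all of them. Of the 8, 1 was higher without overlap (against 2.6% of all transcripts), and the list summed to 305 to 412 CPM in the high and 172 to 224 CPM in the low livers. Most of that sum was Wfdc21, which was also the 1 marker without overlap, at 277 to 349 CPM in the high and 148 to 192 CPM in the low livers. S100a8, chosen here after its values were seen, was at 0.897, 3.64, 0.512 and 0.690 CPM in the high and 0.313 to 1.35 CPM in the low livers. In the 48 libraries 17 of 22 neutrophil markers rose with the level (3.39% of all genes), with S100a8 at 1.07 ± 0.12 per unit (adjusted p = 1.03e-08) and at 209 CPM in library 864. Without that library 2 of 20 markers rose (against 0.498% of all genes), and the slope of S100a8 was 0.49 (adjusted p = 0.241). Prtn3, proteinase 3 of neutrophil granules, was at 35.5, 18.8, 0.796 and 12.9 CPM in the high and 0.158 to 0.939 CPM in the low livers, so liver 1154 alone lay within the low set. It rose in the 48 libraries (slope 1.37 ± 0.11, adjusted p = 1.05e-12), also without 864 (slope 1.12, adjusted p = 1.71e-05).

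Genes of the vector and of growth overlapped between the sets. Myc was at 24.4, 24.5, 45.6 and 28.7 CPM in the high and 26.9 to 35.8 CPM in the low livers, with a difference of -0.09, and how far the count table covers the vector's own transcript was not tested. None of 44 ribosome biogenesis and Myc target transcripts and none of 38 proliferation transcripts were without overlap, with median differences of 0.10 and 0.18. Male-type STAT5 transcripts had a median difference of -0.58, and Elovl3 was the 1 of 20 without overlap (lower, against 2.24% of all transcripts). Pericentral transcripts had a median difference of 0.52, with 3 of 24 higher without overlap, against 2.6% of all transcripts. In the 48 libraries 1 of 24 rose, against 3.39% of all genes tested. The second batch alone also had 1 rising, with 14 rising and none falling at an unadjusted p under 0.05 by edgeR (median slope 0.17). By the same measure 2 rose and 2 fell in the first batch alone (median slope -0.02), and none did without 864 and 1137.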

How the data were processed

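PolyA RNA of whole livers was sequenced (2x75 bp, per the labels' protocols). The deposited table holds expected counts. For it the authors used STAR for alignment and HOMER for counting, with GRCm38 (mm10) as the genome, per the submitters' processing notes; versions are not given in the sources used here. Per the file headers, HOMER summed reads over exons, took a single transcript for each symbol and was given no strand. The deposited values come in steps of 0.5, with 29.9% not whole, and were rounded before use.

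The 4 high and 6 low livers were chosen on 11 transcripts of the same libraries, so their differences carry no test. The sets and the 39 gene lists were chosen with earlier results of these data known. Levels are log2(CPM + 1) with TMM scaling over 58 libraries, and transcripts with a mean of at least 1 CPM over the 10 livers entered. Slopes on the acute-phase level came from edgeR 4.0.16 (quasi-likelihood, filterByExpr with a minimum count of 10, 9 terms for group and batch, two-sided, Benjamini-Hochberg, threshold 0.05) in the 48 other libraries, without the 11 transcripts in counts of calls. The standard error is the absolute slope divided by the square root of F. The procedure was tested on simulated data. Tools were R 4.3.3, limma 3.58.1, DESeq2 1.42.0, Python 3.11.15, matplotlib 3.10.9 and Biopython 1.88.

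Named by rule were the 11 transcripts, Myc, up to 15 with the largest difference in each direction (mean of at least 5 CPM, without predicted genes, Mup genes and receptor segments) and up to 4 of each list; others are said to be chosen after their values were seen. The text prints part of them. Alternatives were other scalings, tools, filters, pseudocounts and thresholds, each batch or the old mice alone, and leaving out libraries. Promoter motifs were chosen with the sequences in view, and sequences come from RefSeq. Among the 45 pairs of the 10 libraries none were duplicates (0 identical).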

Additional observations from a re-analysis of the deposited data

Results flagged for a closer look

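The acute-phase level in each group by batch, and the log2(CPM + 1) of the 11 transcripts, of Myc and of those named by size of difference in the high and in the low set, were checked for a library far from the others of its group. Of 95 groups checked 4 stood out, and chance alone marks about 1 in 20 groups. Library 1137 had an acute-phase level of 9.34 among the 4 second-batch old mApple vehicle livers, whose median was 6.54. Library 1127 had a level of 7.65 among the 10 young Myc ruxolitinib livers, whose median was 5.49. In the high set, Itih3 was lowest in liver 1150 at 2004 CPM, against 3040 to 3223 CPM in the other 3. Hectd2 was at 3.07 CPM in high liver 1154, against 21.3 to 27.5 CPM in the other 3 high livers and 32.9 to 55.2 CPM in the low livers.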

How the results depend on the processing

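The number of transcripts apart and lower was 96 with a pseudocount of 0.1 CPM, and with a minimum difference of 1.5-fold it was 156, with 89 higher. Leaving out 1 of the 10 livers gave 32 to 57 higher (57 without 1150) and 39 to 242 lower (242 without 1150, 84 without 1155). Genes rising and falling in the 48 libraries numbered 302 and 97 with limma voom, 53 and 6 in the second batch, 223 and 82 in the first, 314 and 141 in old mice, 70 and 11 without libraries 860, 861, 864 and 865, and 64 and 6 without 864 and 1137 (chosen after seeing the data). Leaving out 1 library gave 71 to 668 rising (71 without 864, 292 without 856) and 23 to 377 falling (23 without 864, 142 without 869, 153 without 856). The other scalings, DESeq2, no filter and the 5 marker transcripts kept these counts within 1.5 times, with 417 falling by DESeq2. The cause of these changes was not tested.

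Of the 49 slopes recomputed under every alternative, 9 changed sign under some, and of these S100a8 (-0.116 in the second batch) had passed the threshold. Csf3r, a neutrophil marker not described above, had also passed and was at -0.102 in the second batch. For Klf10 they were 0.00333 with DESeq2, 0.0129 with voom, 0.00294 with 5 markers, 0.121 in the second batch, 0.127 without the 4 libraries, 0.203 without 864 and 1137, and -0.0370 to 0.192 without single libraries. For G6pc they were 0.101 with voom, 0.176 in the second batch, 0.213 without the 4 libraries, 0.128 without 864 and 1137, and -0.164 to 0.0524 without single libraries. In the second batch Hectd2 had 0.0957, Oasl2 -0.0658, Hamp -0.00319 and Hyou1 0.0421. Hyou1 had 0.0133 in old mice and -0.0561 to 0.00967 without single libraries. Atp6v0d2 had -0.0432 in the first batch. Bst2 had 0.0853 without 864 and 1137 and -0.0560 to 0.0121 without single libraries. Scd1 passed without 1127 or 865, Csad without 864 or 866, and Igfbp3 was lost without 864. No paired analysis was possible because library numbers are unique to each liver. With 4 and 6 livers, 1 liver decides whether the sets overlap, and transcripts near 1 CPM carry few counts in the shallowest of the 10 libraries (11.9 M).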

Other observations

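Some transcripts stood out in a single high liver. Liver 1154 had 99.4 CPM of Sult1e1, estrogen sulfotransferase, against 11.1, 0.529 and 4.52 CPM in high livers 1149, 1150 and 1158 and 0.0355 to 3.13 CPM in the low livers. The same liver had 1265 CPM of Cyp2b10, a xenobiotic-induced P450, against 128 to 270 CPM in the other 3 high livers and 64.6 to 228 CPM in the low livers, and 203 CPM of Fkbp5, a glucocorticoid-induced chaperone, against 38.6 to 113 CPM in the other 3 high livers and 29.9 to 39.5 CPM in the low livers. Usp2, a clock-controlled deubiquitinase, was at 88.1 CPM in 1154, against 5.22 to 19.02 CPM in the other 3 high livers and 1.72 to 7.36 CPM in the low livers. Liver 1149 had 38.3 CPM of Mki67, a marker of dividing cells, against 6.74 to 10.3 CPM in the other 3 high livers and 3.30 to 17.1 CPM in the low livers.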
